A study of Mus musculus with 3 samples.

Results

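The 43 genes described here are the type I interferon receptor chains and genes that type I or type II interferon induces, measured by RNA-seq in sorted mouse bone marrow pre-B cells. They were taken from the count table by gene symbol, and all 43 were found among its 26286 Entrez gene identifiers. The cells came from CAG-rtTA3;TRE-GFP-shLuc.1309 bitransgenic mice, in which a transactivator expressed from the CAG promoter switches on, under doxycycline, a cassette that links GFP to a control hairpin against luciferase. Every library had 3 days of doxycycline and was sorted as GFP+B220+IgM–Kit–CD25+. The study has 1 group of 3 libraries, so the measurements are the level of each gene and the spread between libraries. No untreated, interferon-treated or transgene-free library was used here. The labels used here give neither strain and age nor whether the libraries came from separate mice, and p-values measure only the spread between these samples, which may be technical.

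Type I interferon binds a receptor made of the chains IFNAR1 and IFNAR2, which activates the kinases JAK1 and TYK2. These phosphorylate transcription factors of the STAT family, among them STAT2, which takes part with IRF9 in the complex ISGF3, and this complex binds the interferon-stimulated response element (ISRE) of target promoters. Type II interferon acts through another receptor, and its targets carry gamma-activated sequences (GAS). The induced proteins sense viral nucleic acid, degrade or block viral RNA, modify proteins or feed back on the pathway, and many cells keep a low level of them without infection.

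The libraries differed in depth. Total counts ran from 12021576 in replicate 2 and 12418054 in replicate 1 to 32086649 in replicate 3, a 2.67-fold range, so replicate 3 carries the least counting error. Replicate 3 was also the only library made with CASAVA 1.8.0, the other two having 1.8.2, so that version and library cannot be told apart. Replicate 1 had 22609 counts of Xist against 94 and 70 in replicates 2 and 3, so that this difference and library cannot be told apart either. Of 14 genes chosen to mark pre-B cells and their gate, 13 stood above 10 RPKM in every library, the exception being Kit, the negative gate.

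Because these genes are read by shared factors, the promoters were searched first for the core of the ISRE, which is GAAA, a gap of any 2 bases and GAAA again, and for the core of the GAS, TTCNNNGAA, on both strands. RefSeq promoter windows of the GRCm38.p6 build, which run from 250 bases before to 50 after each start, were found for 33 members. The ISRE core was in 15 of the 33 (45.5%), against 3.99% of the 27025 genes with such windows. The GAS core was in 10 of the 33 (30.3%), against 9.55% of all genes. In 12 members an ISRE core lay before the start and in the other 3, Ddx58, Eif2ak2 and Ifih1, only after it. Matches overlapped each other in 5 members, and 1 GAS match, in Bst2, overlapped an ISRE match. A match describes letters and does not show that a factor is bound there. The lack of a match means only that the exact core was not in the windows searched, and near matches were not counted.

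The ISRE regions shown here belong to 8 members spread over the range of levels, from Rsad2 to Irgm1, each written in the direction of the gene, 5′ to 3′, with the matches in capitals. Where the gene carries the core on its other strand, the capitals read TTTC, the gap and TTTC.
Isg15 (chr4:156200860-156200911, minus strand): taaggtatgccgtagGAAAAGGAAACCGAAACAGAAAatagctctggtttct
Ifit1 (chr19:34640770-34640828, plus strand): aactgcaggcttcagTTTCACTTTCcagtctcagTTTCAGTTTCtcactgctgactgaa
Ifit3 (chr19:34583392-34583431, plus strand): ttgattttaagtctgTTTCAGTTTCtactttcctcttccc
Rsad2 (chr12:26456548-26456587, minus strand): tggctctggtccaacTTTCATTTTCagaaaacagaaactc
Oas3 (chr5:120777710-120777749, minus strand): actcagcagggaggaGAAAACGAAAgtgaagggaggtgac
Bst2 (chr8:71537572-71537617, minus strand): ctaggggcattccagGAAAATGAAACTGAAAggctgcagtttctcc
Gbp3 (chr3:142559984-142560029, plus strand): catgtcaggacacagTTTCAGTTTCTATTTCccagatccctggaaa
Irgm1 (chr11:48871421-48871465, minus strand): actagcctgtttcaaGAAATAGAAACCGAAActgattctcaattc
Isg15 held 3 overlapping cores, the first beginning 78 bases before the start. Ifit1 held a pair at 104 and 85 bases before it. For Ifit3 the core shown began 122 bases before the start, and another, not shown, began 156 bases before it. Irgm1, whose level was among the highest of the 43, had its first core 30 bases before the start. Members with an ISRE core had a median level of 2.69 RPKM (15 members) and those without it 8.70 RPKM (18 members). Their ranges overlapped, from 0.270 to 36.9 RPKM and from 0.159 to 103 RPKM.

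**Figure D1:**
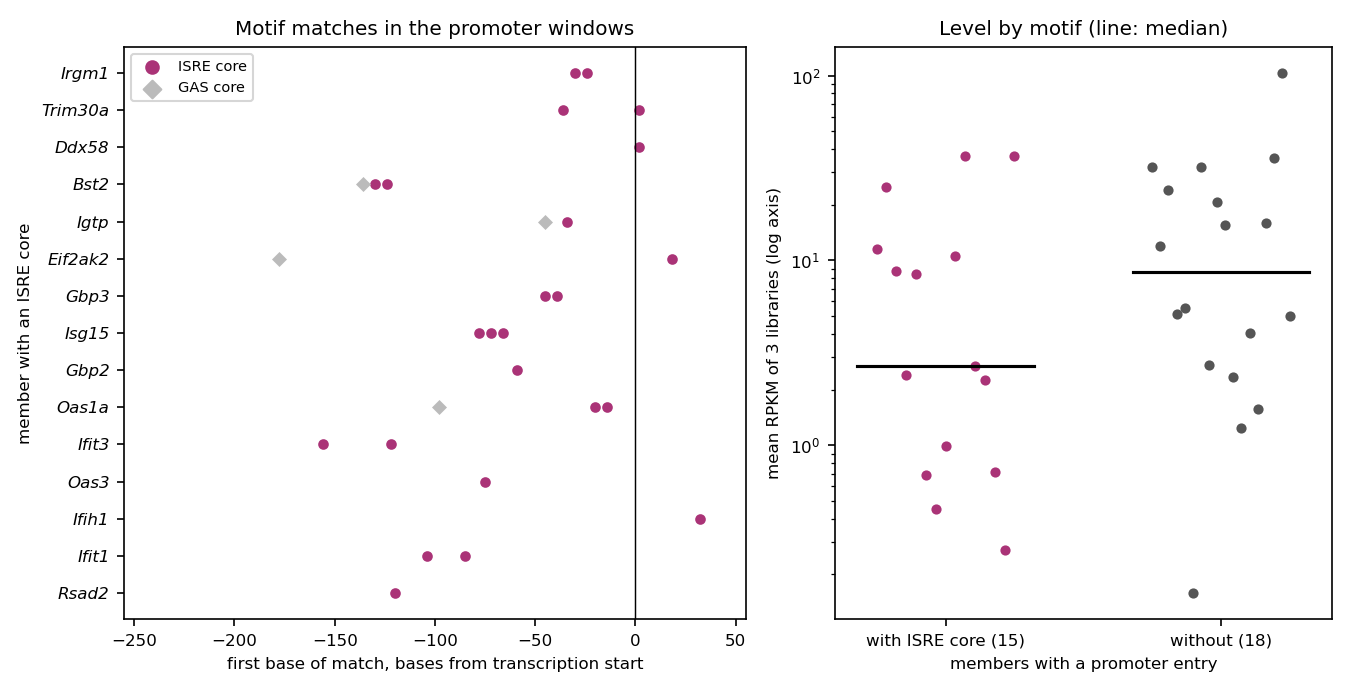
Left, distance in bases of the first base of each ISRE core (circles) and GAS core (diamonds) from the transcription start for the 15 members with an ISRE core, ordered by level; right, mean RPKM over 3 libraries on a log axis for the 33 members with a promoter window, each point a gene and each line a median. The ISRE cores lie between 156 bases before and 32 bases after the start, and the levels of members with and without the core overlap.

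Levels are given as RPKM, reads scaled by gene length and library size, which allows genes of different length to be compared. Of the 43 members, 37 reached 1 RPKM in every library (86.0%), against 64.0% of the 17423 genes with any count. The median level of the members was 2.56 ± 0.21 on the log2(RPKM + 0.5) scale (SD, n = 3), close to the 2.57 ± 0.02 of all genes with a count. The levels spanned a wide range, from Trim25 at 103 ± 3.63 RPKM to Ifi44 at 0.159 ± 0.030 RPKM. In the order of levels, 36 of the 42 pairs of neighbours overlapped in their ranges over libraries. The 6 breaks lay below Trim25, Ifi27, Samd9l, Dtx3l, Parp9 and Ifnar2, and from Cmpk2 downward every pair of neighbours overlapped.

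**Figure D2:**
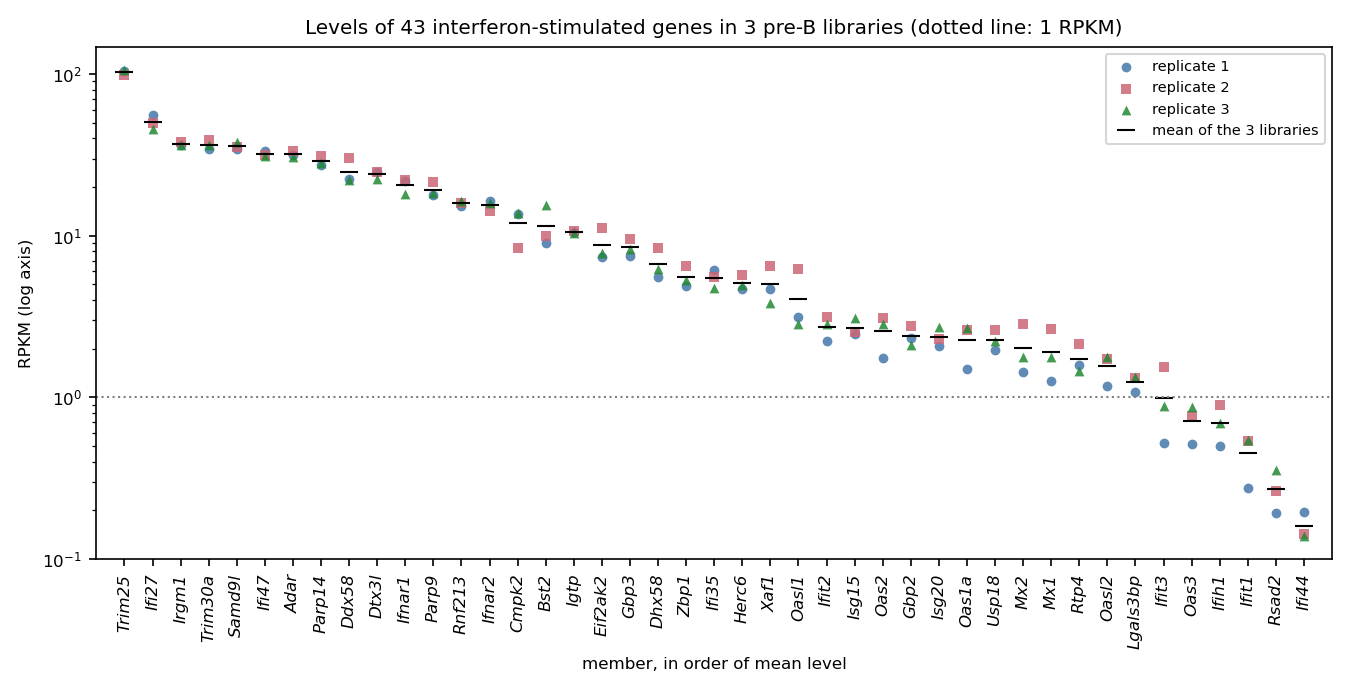
Level of each of the 43 members in each of the 3 libraries, in RPKM on a log axis, ordered by mean level, with a dash at the mean and a dotted line at 1 RPKM. Trim25 stands alone at 103 RPKM, and Ifih1, Oas3, Ifit1, Rsad2 and Ifi44 lie below the line in every library.

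Both receptor chains were present. Ifnar1 (Entrez 15975), the signalling chain that binds TYK2, stood at 21.8, 22.1 and 18.0 RPKM in replicates 1, 2 and 3. Ifnar2 (Entrez 15976), the high-affinity ligand-binding chain, stood at 16.3, 14.2 and 15.9 RPKM. Ifnar1 exceeded Ifnar2 in every library, by 0.40 ± 0.22 on the log2 scale, or 1.32-fold. With 3 libraries an exact two-sided sign-flip test cannot go below 0.25, the value reached here (0.28125 adjusted over 9 such pairs). Ifnar1 was lowest in replicate 3 and differed between libraries beyond counting noise (chi-square against Poisson counts, adjusted p = 3.68e-16). Ifnar2 did not pass that test (adjusted p = 0.061).

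Other genes of the signalling chain were present too. From lists of pathway genes, Stat2 stood at 33.6 ± 1.98 RPKM and Irf9 at 39.3 ± 3.63 RPKM, both parts of ISGF3. The kinases Jak1 and Tyk2 stood at 70.7 ± 4.50 and 17.5 ± 0.30 RPKM. Of 18 receptor-proximal genes 16 reached 1 RPKM in every library, as did 12 of 17 nucleic acid sensors and adaptors. So did 9 of 10 genes in a list of interferon regulatory factors and IRF2-binding proteins. The factor Irf7, itself induced by interferon, was at 5.08 ± 0.24 RPKM. Among the sensors and adaptors, Sting1, the adaptor of the cytosolic DNA pathway, stood at 39.2 ± 7.68 RPKM, against 0.333 ± 0.151 RPKM for Cgas, which makes its ligand, and 0.014 ± 0.012 RPKM for the double-stranded RNA receptor Tlr3.

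Interferon transcripts themselves were nearly absent. Of 21 interferon genes, 18 had no count in any library, among them Ifnb1 and every alpha gene listed. For these, 3 counts in the deepest library would be 0.114 to 0.164 RPKM, depending on gene length, and 0.306 to 0.439 RPKM in the shallowest. Ifng, the type II interferon, had 2 counts in each library. The libraries held transcripts of the receptor and its signalling chain, with interferon transcripts at or below what these depths can show.

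The IFIT proteins bind viral RNA through tetratricopeptide repeats, and the genes of Ifit2 and Ifit3 are direct neighbours, with Ifit1 close by. Ifit2 led them at 2.22, 3.13 and 2.83 RPKM in replicates 1, 2 and 3. Ifit3 stood at 0.524, 1.55 and 0.887 RPKM, from 13, 37 and 57 counts. Ifit1 had 9, 17 and 46 counts, or 0.275, 0.538 and 0.542 RPKM, and it fell below the filter on low counts, so it was not tested. Replicate 1 was the lowest library for all 3 genes. In replicate 2 Ifit3 was 2.95-fold the level of replicate 1, with a 95% counting interval from 1.53 to 6.05 (Clopper-Pearson), and it passed the Poisson test (adjusted p = 0.00249). Ifit2 passed it narrowly (adjusted p = 0.0404). Ifit3 shares 61.8% of its 31-base words with the neighbouring copy Ifit3b, which had 0, 4 and 4 counts, so its level is uncertain. Ifit1 lay below Ifit2 by 1.77 ± 0.08 on the log2(RPKM + 0.5) scale, in every library. The size of this difference depends on the added 0.5, which is near the level of Ifit1. Ifit1 minus Ifit2 was -2.39 with 0.1 added and -1.36 with 1 added.

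Isg15 encodes the ubiquitin-like modifier, and Herc6, Trim25 and Usp18 encode enzymes around it and around RIG-I signalling. Isg15 (Entrez 100038882) was low, at 2.45, 2.54 and 3.08 RPKM in replicates 1, 2 and 3, from 23, 23 and 75 counts. Usp18, the protease that removes ISG15 and damps the receptor, stood at 1.95, 2.59 and 2.23 RPKM. Herc6, the main ISG15 ligase of mice, stood at 4.68, 5.69 and 4.94 RPKM. Trim25, a ubiquitin ligase for RIG-I, stood at 105, 99.0 and 106 RPKM, above 96.0% of genes with a count. The modifier and its protease differed by less than the spread between libraries (0.21 ± 0.21 on the log2 scale), and Trim25 stood far above both. Trim25 was the member with the deepest counts, so that a 1.07-fold range between its libraries passed the Poisson test (adjusted p = 0.000128).

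Among nucleases and nucleotide enzymes, Rsad2, the gene of viperin, which makes a chain-terminating nucleotide, had only 9, 12 and 43 counts, or 0.191, 0.265 and 0.353 RPKM. Its immediate neighbour Cmpk2, a mitochondrial nucleotide kinase, stood at 13.6, 8.35 and 13.8 RPKM. Cmpk2 was lowest in replicate 2, at 0.615-fold of replicate 1 (95% counting interval 0.533 to 0.707), and passed the Poisson test (adjusted p = 1.14e-14). This was the opposite of the order seen in most members. The exonuclease gene Isg20 stood at 2.06, 2.28 and 2.71 RPKM and did not pass (adjusted p = 0.441).

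The Mx proteins are dynamin-like GTPases that block viral particles or their traffic. Mx1 had 42, 86 and 154 counts, or 1.254, 2.66 and 1.77 RPKM in replicates 1, 2 and 3. Mx2 had 43, 83 and 139 counts, or 1.43, 2.86 and 1.78 RPKM. Both were highest in replicate 2 and lowest in replicate 1. The ratio of replicate 2 to replicate 1 was 2.12 (95% counting interval 1.45 to 3.15) for Mx1 and 2.00 (1.37 to 2.96) for Mx2. Both passed the Poisson test (adjusted p = 0.000365 and 0.000456). Mx1 and Mx2 share 8.67% and 7.96% of their words with other genes, mainly with each other, and Mx1 lay below Mx2 by a small amount in every library (-0.08 ± 0.07 on the log2 scale).

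The OAS enzymes make 2′-5′ oligoadenylates, which activate RNase L, and the OASL proteins are their relatives. Oasl1 was the highest of the 5, at 3.15, 6.21 and 2.85 RPKM from 83, 158 and 195 counts. Oas2 stood at 1.75, 3.09 and 2.85 RPKM. Oas1a stood at 1.49, 2.61 and 2.68 RPKM. The lowest library was replicate 1 for Oas1a, Oas2, Oas3 and Oasl2, while Oasl1 was low in replicates 1 and 3 alike and high in replicate 2, at 1.97-fold of replicate 1 (1.503 to 2.61). Oasl1 (adjusted p = 1.08e-12), Oas2 (0.000178), Oas1a (0.012) and Oas3 (0.0485) passed the Poisson test and Oasl2 did not (0.0689). Oas1a shares 68.8% of its words with other genes, almost all with Oas1g, which stood at 0.767, 1.63 and 1.51 RPKM, so reads may be split between these copies. Oasl1 exceeded its neighbour Oasl2 in every library, by 1.09 ± 0.52 on the log2 scale.

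The sensors of foreign nucleic acid covered a wide range. Ddx58, the gene of the RNA helicase RIG-I, stood at 22.3, 30.1 and 22.2 RPKM from 1367, 1784 and 3535 counts. Ifih1, the gene of its relative MDA5, stood at 0.496, 0.892 and 0.693 RPKM. Dhx58, the gene of LGP2, which tunes both, stood at 5.57, 8.34 and 6.18 RPKM. Ddx58 exceeded Ifih1 in every library, by 4.41 ± 0.14 on the log2(RPKM + 0.5) scale. The size of this difference depends on the added 0.5, which is near the level of Ifih1. It was 4.99 with 0.1 added and 3.93 with 1 added. All 3 helicase genes were highest in replicate 2 and passed the Poisson test (adjusted p = 1.01e-25, 0.0416 and 0.000151). Eif2ak2, the gene of the kinase PKR, which halts translation on double-stranded RNA, stood at 7.43, 11.2 and 7.77 RPKM. Its replicate 2 was 1.51-fold of replicate 1 (1.33 to 1.72), and the gene passed the Poisson test over all 3 libraries (adjusted p = 4.15e-13). Zbp1, a sensor of Z-form nucleic acid, stood at 4.88, 6.48 and 5.29 RPKM and just missed the threshold (adjusted p = 0.0541). Adar, the RNA editing enzyme that masks self RNA, was the steadiest of the group, at 31.5, 33.4 and 30.8 RPKM. All 6 sensor genes were highest in replicate 2, against 36.5% of all genes tested, although for Adar the excess was small.

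Parp9 and Dtx3l encode an ADP-ribosyltransferase and the ubiquitin ligase it partners, from adjacent genes, and Parp14 lies next to them. Parp14 stood at 27.5, 31.04 and 28.3 RPKM in replicates 1, 2 and 3. Dtx3l stood at 24.8, 24.9 and 22.4 RPKM and Parp9 at 17.8, 21.4 and 18.4 RPKM. Parp9 lay below Dtx3l in every library, by 0.32 ± 0.13 on the log2 scale. Rnf213, a giant ATPase and ubiquitin ligase that coats pathogens, stood at 15.3, 16.0 and 16.4 RPKM. The highest and lowest libraries of these 4 genes lay at most 1.20-fold apart, and their counts were deep enough that all 4 passed the Poisson test.

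The GTPases induced by interferon-gamma guard against intracellular pathogens. Irgm1 stood at 36.4, 38.1 and 36.2 RPKM, Ifi47 at 33.3, 31.7 and 30.9 RPKM and Igtp at 10.5, 10.6 and 10.4 RPKM. None of these 3 passed the Poisson test (adjusted p = 0.463, 0.339 and 0.961), and Igtp had the smallest range of the 43, 1.023-fold. Igtp lay below Irgm1 by 1.77 ± 0.02 on the log2 scale. Igtp shares 15.9% of its words with Irgm2, which stood at 4.67 ± 0.92 RPKM. The guanylate-binding genes were lower, with Gbp3 at 7.53, 9.55 and 8.31 RPKM and Gbp2 at 2.33, 2.75 and 2.10 RPKM. Gbp3 passed the Poisson test (adjusted p = 0.0361) and Gbp2 did not (0.196). Gbp2 lay below Gbp3 by 1.63 ± 0.13 on the log2 scale, in every library.

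Bst2, the gene of tetherin, which holds budding virus at the cell surface and is also a marker of plasmacytoid dendritic cells, stood at 9.003, 9.98 and 15.6 RPKM. It was highest in replicate 3, as was Siglech, another marker of those cells, at 1.44, 0.801 and 4.16 RPKM. Of 6 tested genes in a dendritic cell list, 4 were highest in replicate 3 (35.1% of all genes tested) and 2 in replicate 2 (36.5%). The latter were Tcf4 at 27.3, 27.9 and 25.1 RPKM and Cox6a2 at 7.70, 9.12 and 9.05 RPKM. The part of plasmacytoid dendritic cells in the Bst2 level was not tested. Bst2 passed the Poisson test (adjusted p = 1.05e-06). Rtp4, a Golgi chaperone that restrains the interferon response, stood at 1.59, 2.12 and 1.46 RPKM, and the secreted glycoprotein gene Lgals3bp at 1.08, 1.31 and 1.33 RPKM. Neither of these low genes passed the Poisson test (adjusted p = 0.223 and 0.663).

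Among the remaining members, Ifi27 (Entrez 52668), a small mitochondrial protein gene, was the second of the 43 by level, at 55.8, 49.4 and 45.8 RPKM. Its relative Ifi27l2a was higher still, at 132 ± 14.5 RPKM. Trim30a, a ubiquitin ligase that restrains innate signalling, stood at 34.4, 39.2 and 36.2 RPKM and Samd9l, a restriction factor of translation, at 34.2, 35.5 and 37.9 RPKM. Xaf1, a gene that favours cell death, stood at 4.65, 6.52 and 3.82 RPKM, highest in replicate 2 and lowest in replicate 3. It passed the Poisson test over all 3 libraries (adjusted p = 7.58e-08). Ifi35, which encodes a partner of NMI, stood at 6.16, 5.58 and 4.75 RPKM. Ifi44, at 7, 5 and 13 counts, was the lowest of the 43.

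The members were then compared between libraries as a set, as the median of each library's log2 CPM against the gene mean. The 40 members with enough counts for testing had a median departure of -0.12 in replicate 1, 0.14 in replicate 2 and -0.02 in replicate 3, against 0.003, 0.002 and -0.002 over all 12147 genes tested. Of the 40, 34 were higher in replicate 2 than in replicate 1, against 49.7% of all genes tested. The median ratio of those libraries was 0.27 on the log2 scale. Replicate 2 was the highest library for 25 of the 40 (36.5% of all genes tested), replicate 1 the lowest for 24 (27.6%), and 15 had both (14.4%). Replicate 2 was the lowest library for 3, namely Trim25, Ifnar2 and Cmpk2 (36.3% of all genes). Replicate 3 was the highest for 11 (35.1%) and replicate 1 for 4 (28.4%). These counts describe 3 libraries and carry no test. Replicate 1 was also the only library with high Xist counts, and its low place here cannot be told apart from that difference.

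The ratio of replicate 2 to replicate 1 was larger in size in low members, though most high members were also higher in replicate 2. The 15 members with at least 10 RPKM in every library had a median range between libraries of 1.11-fold and a median ratio of replicate 2 to replicate 1 of 0.05 on the log2 scale, and 11 of them were higher in replicate 2 (48.7% of the 6653 genes tested at that level). The other 25 tested members had a median range of 1.51-fold and a median log2 ratio of 0.48, and 23 of them were higher in replicate 2 (50.9% of the other 5494 genes tested). Over all genes tested, the median range was 1.15-fold at the high level and 1.33-fold below it. Median log2 ratios were 0.98 for the 2 tested IFIT genes, 1.021 for the Mx genes, 0.78 for the OAS family and 0.51 for the sensors. They were 0.07 for the interferon-gamma-inducible GTPases, 0.12 for the PARP group and -0.09 for the receptor chains. The membrane and secreted proteins had 0.27, the ISG15 group 0.16, the other induced proteins 0.05, and the nucleases and nucleotide enzymes, of which only Cmpk2 and Isg20 were tested, -0.28. The 13 tested members with an ISRE core were all higher in replicate 2 than in replicate 1, with a median log2 ratio of 0.34. Of the 17 tested members whose window held none, 12 were higher, with a median of 0.07. Members with the core also had the lower median level, 2.69 against 8.70 RPKM, and the part of level in this contrast was not tested. Whether the members with and without the core differ was not tested, and 10 members had no window searched: Ifi27, Parp14, Parp9, Dhx58, Zbp1, Oas2, Usp18, Mx2, Mx1 and Rtp4.

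**Figure D3:**
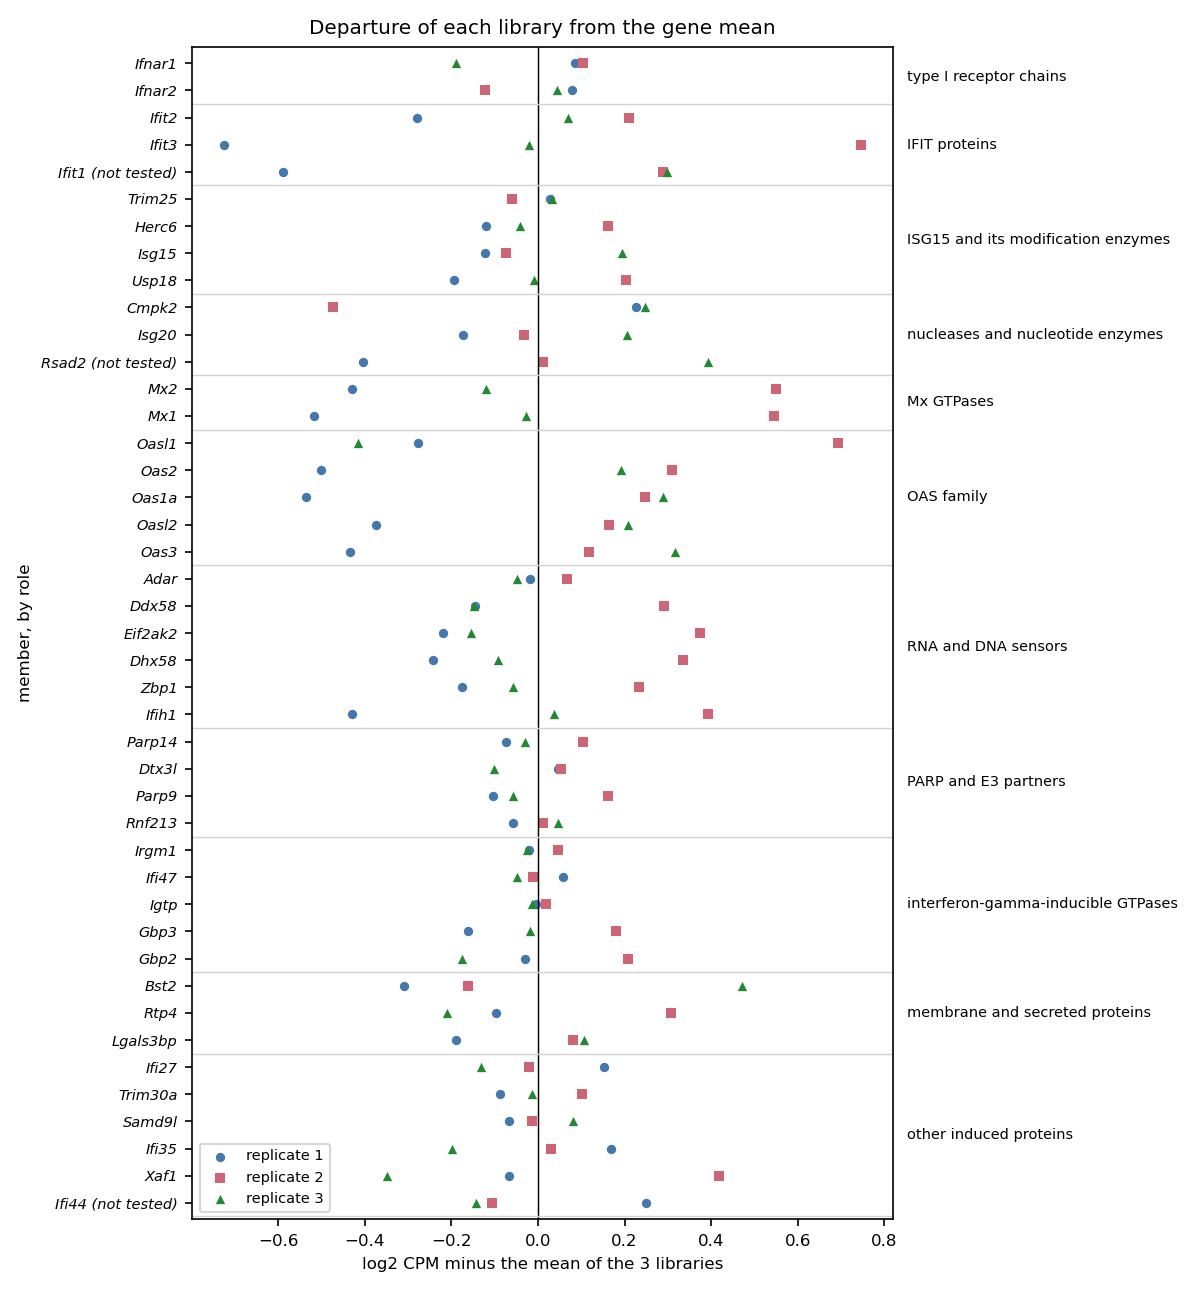
Departure of each library from the mean of the 3, in log2 CPM with a prior count of 2, for each member grouped by role; circles, squares and triangles are replicates 1, 2 and 3. Squares lie to the right for the Mx, OAS and sensor genes, by 0.07 (Adar) to 0.69 (Oasl1), and the interferon-gamma-inducible GTPases Irgm1, Ifi47 and Igtp stay near 0.

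Set against counting noise, 27 of the 40 tested members differed between libraries, where 54.6% of all 12147 genes did (chi-square against Poisson counts, Benjamini-Hochberg over all genes). Of the 27, 19 were highest in replicate 2 (20.8% of all genes tested were called and highest there), 7 in replicate 3 (21.0%) and 1, Ifi27, in replicate 1 (12.8%). Called, highest in replicate 2 and lowest in replicate 1 were 13 members, against 6.64% of all genes. Without replicate 2 the number called was 10 of 42 tested members, against 32.9% of all genes. Without replicate 1 it was 19 of 42, near the 43.3% of all genes called, and without replicate 3 it was 19 of 40, against 25.7% of all genes.

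No member passed a stricter test, which sets each gene's spread against that of genes of like abundance. By edgeR's quasi-likelihood spread test 0 of 40 members were called, against 0.0165% of all genes, and a robust fit also called 0. Before adjustment 4 members, Cmpk2, Oasl1, Ddx58 and Eif2ak2, and 5.30% of all genes fell under 0.05 in edgeR's test. Their unadjusted values there were 0.0197, 0.0309, 0.0376 and 0.0401. Many members thus differed by more than counting noise while none passed against the spread of like genes, and the biological coefficient of variation over all genes was 13.1%. In the comparison of replicate 3, with its other CASAVA version, against replicates 1 and 2, 0 members passed in either direction by edgeR's quasi-likelihood test and 0 by DESeq2. Across all genes, 0.0576% were called higher and 0.0165% lower in replicate 3 by edgeR. Before adjustment 2 of the 40 members fell under 0.05 in edgeR's test, as did 9.62% of all genes. They were Bst2 with a log2 difference of 0.71 (SE 0.23, adjusted p = 0.418) and Ifnar1 with -0.28 (SE 0.11, adjusted p = 0.492).

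Other gene lists were set beside this order. The members' summed level was 576, 609 and 579 RPKM in replicates 1, 2 and 3. A list of 42 further interferon-induced genes summed to 2241, 2411 and 2066 RPKM. Of its 38 tested genes, 18 were highest in replicate 2 (36.5% of all genes tested) and 17 in replicate 3 (35.1%). The Poisson test called 24 of the 38, against 54.6% of all genes tested. The highest genes of that list were Ly6e (475 ± 49.8 RPKM), a membrane protein, and Ifi30 (430 ± 129 RPKM), a lysosomal thiol reductase. Among its lowest was the chemokine gene Cxcl10, with 1, 3 and 0 counts. All 9 tested genes among 19 close paralogs of members were highest in replicate 2, against 36.5% of all genes tested. Trim30d was one of them, at 7.07, 10.8 and 6.26 RPKM. Words that paralogs share with members may place some of the same reads in both. The pre-B list was also highest in replicate 2, at 5074, 5304 and 4723 RPKM. Markers of other cells were summed in the same way. Neutrophil genes, all 17 above 1 RPKM in every library, summed to 1391, 1677 and 2469 RPKM. Monocyte and macrophage genes, 6 of 15 above it and Marco with no count, summed to 192, 223 and 271 RPKM. The dendritic cell list, 2 of 12 above it, summed to 38.7, 39.9 and 42.6 RPKM, the T and NK cell list, 2 of 12, to 14.6, 17.7 and 17.5 RPKM, highest in replicate 2 like the members, and the basophil and mast cell list, 1 of 7, to 3.67, 7.24 and 24.5 RPKM. Plasma cell genes, 5 of 7 of which reached that level, summed to 630, 607 and 576 RPKM. In that list Irf4 stood at 252, 245 and 222 RPKM, while Tnfrsf17 had 1, 1 and 2 counts. Lyz2 made up most of the monocyte and macrophage sum, at 156, 186 and 228 RPKM. Tcf4 did so in the dendritic cell list. The T and NK genes above 1 RPKM in every library were Lck and Klrb1c. A sum by itself does not show that cells of a type were present. Of these 6 lists of other cells, all but the plasma cell list were lowest in replicate 1, as 24 of the tested members were, and their part in the members' levels was not tested. In bulk RNA, more cells of a type and more RNA per cell cannot be told apart.

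**Figure D4:**
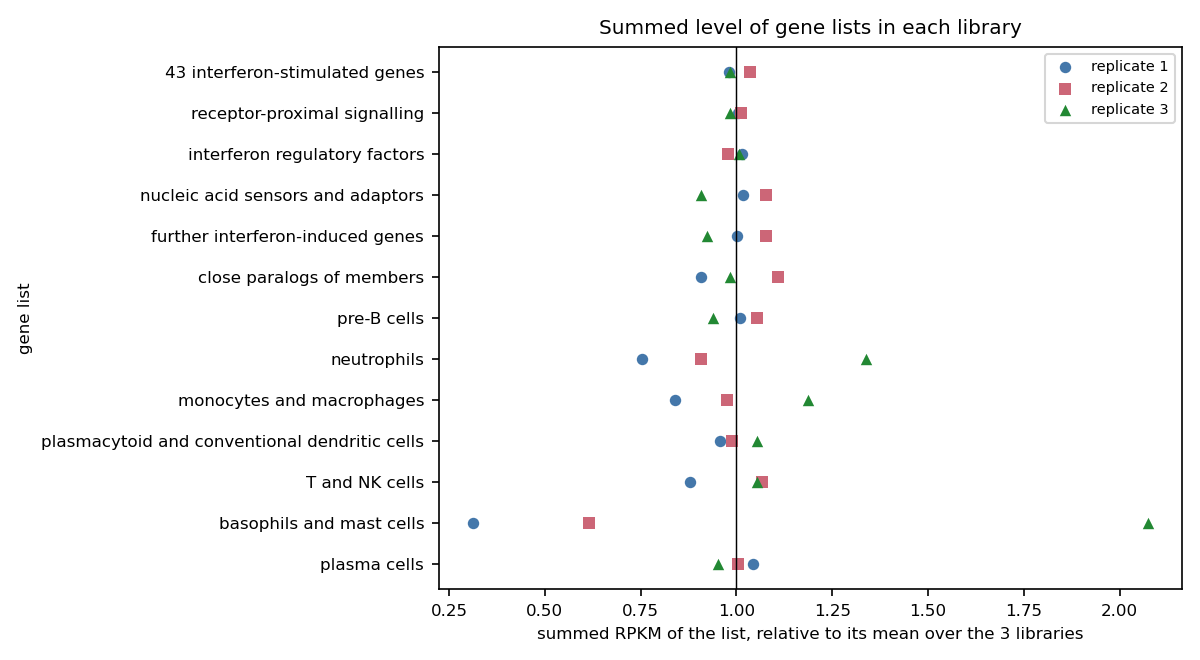
Summed RPKM of each gene list in each library, divided by the list's mean over the 3 libraries, for the 43 members, the related interferon lists and marker lists of cell types. The members lie within a few percent of 1 with replicate 2 highest, whereas neutrophil, monocyte and basophil lists are highest in replicate 3.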

How the data were processed

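RNA-seq counts of 3 pre-B libraries were analysed. The authors deposited raw read counts per Entrez gene with a gene length, and the submitters' processing notes name featureCounts and mm9. The aligner, annotation, strand setting and rule for reads of several genes were found in none of the sources used here, so counts of paralogs and overlapping genes are uncertain. The series table equals the sample files. Symbols came from RefSeq GRCm38.p6, by identifier, for 24176 of 26286 rows. Promoter sequences and their coordinates are of that build, not of mm9.

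RPKM was computed here with TMM-scaled library sizes. Tests ran in R 4.3.3 with edgeR 4.0.16 and DESeq2 1.42.0 on the 12147 genes kept by filterByExpr (minimum count 10), with Benjamini-Hochberg adjustment over all of them and a threshold of 0.05. Members not tested were Ifit1, Rsad2 and Ifi44. The 95% intervals, like the limit of 3 counts, reflect counting error alone. Shared words of 31 bases were counted in GENCODE M21 transcripts. In 10 members more than 10% of the words were shared with other genes. Besides Ifit3, Oas1a and Igtp, they were Adar (15.4%), Herc6 (13.85%), Isg15 (13.1%), Ifi35 (12.8%), Rtp4 (12.5%), Trim30a (11.9%) and Ifit1 (10.8%). The levels of these members are uncertain to that extent. Scripts were tested on simulated data with changes larger than any range between libraries among the members, which does not show that smaller differences would be found. All 43 members are accounted for by role; of each other list the 4 highest and 2 lowest genes, genes past a spread test and close paralogs could be named, and Tyk2, Cgas and Ifnb1 were named outside that rule, after their values were seen. Members, lists and tests were chosen with earlier results of these data known. Alternatives covered scaling, filter, unit, pseudocount, tool, thinning of replicate 3 to 12021576 counts and leaving out replicates. One planned comparison of a pair of genes is not reported here.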

Additional observations from a re-analysis of the deposited data

How the results depend on the processing

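The number of members at 1 RPKM or more in every library lay between 29 (minimum of 2 RPKM) and 40 (TPM, or CPM) in all alternatives, against 37. The median level, 2.56, was 3.73 with TPM and 3.63 with CPM, which use other scales, and lay between 2.44 and 2.62 without each replicate. The Poisson count of 27 stayed at 27 with DESeq2 size factors and with replicate 3 thinned (54.5% and 46.4% of all genes tested). It was 23 of 43 members when all genes with a count were tested, against 38.4% of those genes. Leaving out a replicate, so that fewer libraries enter, gave 10 (without replicate 2) or 19 (without replicate 1 or 3). The counts of 0 in the other tests stayed at 0 in every alternative run. The median log2 difference of replicate 3 from replicates 1 and 2, -0.04, was -0.14 without replicate 1 and 0.0756 without replicate 2, and these fits allow no test of replicate 3 because no residual degrees of freedom remain. With CPM, which ignores gene length, Mx1 minus Mx2 turned to 0.0505 and Isg15 minus Usp18 to -0.83. No paired analysis was possible because there is a single group.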
